A study of Drosophila melanogaster with 2 samples.

Results

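The genes described here are 32 presynaptic and neurotransmitter genes of Drosophila melanogaster, chosen by name from the 13945 protein-coding genes on the main chromosome arms. They were 15 genes of the vesicle release machinery (nSyb, Syt1, Syt4, Syt7, brp, cac, Syx1A, Snap25, unc-13, Rim, cpx, Syn, comt, shi and Cadps), 14 genes of transmitter synthesis and transport (ChAT, VAChT, VGlut, Gad1, VGAT, ple, Ddc, Vmat, prt, SerT, DAT, Hdc, Tdc2 and Tbh) and 3 other neuronal genes (para, futsch and Appl). All 32 symbols were found in the annotation. The study mapped chromatin binding of Hr51, a nuclear receptor also called unfulfilled, by chromatin immunoprecipitation and sequencing (ChIP-seq) in whole embryos of both sexes aged 14 to 16 h. The embryos came from a transgenic strain that makes Hr51 with green fluorescent protein at its C-terminus, and an antibody to that tag pulled the protein down. There were 2 samples in 1 group, biological replicates 1 and 3. No contrast between conditions was made, and no value from embryos without the tag was used here. Because whole embryos were used, strong binding in few cells and weak binding in many cells cannot be told apart, and the cell type behind a peak is unknown.

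Neurons pass signals by fusing transmitter-filled vesicles with the membrane of the nerve terminal. Fusion is driven by SNARE proteins, timed by calcium through synaptotagmins and complexin, and placed by the scaffold of the active zone next to calcium channels. What a neuron releases is set by a much smaller number of genes, the enzymes that make a transmitter and the transporters that load it into vesicles or take it back up. In late embryos of the fly these genes come into use as motor neurons and central neurons build their first synapses. Hr51 itself is best known for its roles in mushroom body neurons and clock neurons.

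Peaks came from the authors' list that had passed a threshold on the irreproducible discovery rate, called reproducible peaks here. It held 7229 peaks, each with a summit, which is the position of highest enrichment, and a signal, which is the authors' score for that peak. The sources used here do not give its scale, so it serves to describe peaks and to order them inside 1 list. Reproducible signals ran from 135 to 5850 with a median of 270. Each replicate also had its own list of 30000 peaks, with a median signal of 36.8 in replicate 1 and 33.5 in replicate 3, and a further list of 30000 peaks had been called on both together. The 7229 reproducible peaks were the 7229 of highest signal in that pooled list. Read depth is unknown, so no precision can be attached to the signal of a single peak, and the values in the 2 replicates stand in for it.

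Hr51 summits were no more common at the starts of these genes than at the starts of genes in general, and they were of middling to low signal. A promoter summit, meaning a reproducible summit within 1000 bp of an annotated transcription start site (TSS) of the gene, was found at 6 of the 32 genes (18.8%), against 23.3% of all protein-coding genes. A summit anywhere in the gene or the 1000 bp on each side was found at 11 of the 32 (34.4%), against 30.4% of all protein-coding genes. For 5 of these 11 the summit lay away from every TSS of the gene (15.6% of the 32), against 7.11% of all protein-coding genes. Members are longer, with a median of 17.9 kb against 2.17 kb. Of the 16 members of 20 kb or more, 5 had a summit in the gene or its flanks and 3 had a promoter summit. Of all 1013 protein-coding genes of that length, 763 and 467 did. The share with summits only away from a TSS was therefore lower among members of that length, not higher. The 21 members outside these 11 had no reproducible summit. The 11 genes shared 16 distinct summits, because 1 summit lies in both ChAT and VAChT. The best rank was 794 of 7229, and 7 of the 16 ranked above the middle of the list. Their median signal was 201, against 281 over the 6045 summits in or near all protein-coding genes.

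**Figure D1:**
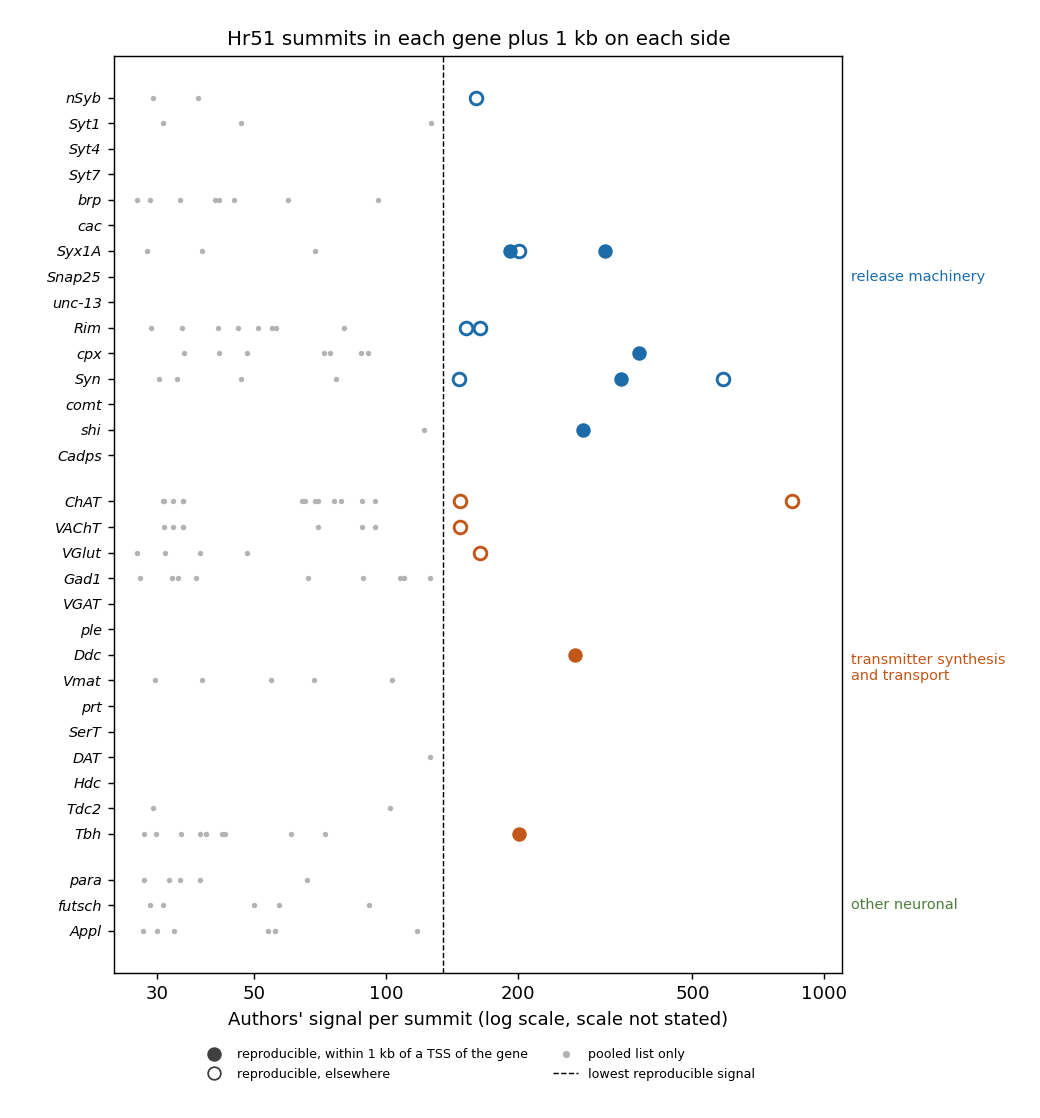
Signal of every Hr51 summit in each of the 32 genes plus 1 kb on each side, on a log axis, with 1 row for each gene. Large points are reproducible summits (filled within 1 kb of a TSS of the gene, open elsewhere), small grey points are in the pooled list only, and the dashed line is the lowest reproducible signal, 135. The 2 highest points, in ChAT (845) and Syn (587), are both open, and the rows of para, futsch and Appl hold grey points only.

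Among the release genes, 4 of 15 (26.7%) had a promoter summit and 6 of 15 (40%) had a summit in the gene or within 1000 bp of it, against 23.3% and 30.4% of all protein-coding genes. The 4 were Syx1A, cpx, Syn and shi. Their promoter windows are printed here because they carry the release class's part of the comparison. Each is the base at the strongest promoter summit of the gene with 50 bases on each side, on the plus strand of dm6, read from the RefSeq genome. Capitals mark 3 motifs, found on either strand. The motif AAGTCA and the related motif AGGTCA are core words of the sites that nuclear receptors bind, and the motif GAGAG is the core of the sites of GAGA factor.
Syx1A, chr3R:24106420-24106520: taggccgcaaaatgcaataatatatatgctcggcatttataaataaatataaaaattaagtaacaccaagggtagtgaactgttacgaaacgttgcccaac
cpx, chr3R:4281344-4281444: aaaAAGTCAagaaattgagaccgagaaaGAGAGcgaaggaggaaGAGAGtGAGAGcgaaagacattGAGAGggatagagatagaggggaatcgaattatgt
Syn, chr3R:10190132-10190232: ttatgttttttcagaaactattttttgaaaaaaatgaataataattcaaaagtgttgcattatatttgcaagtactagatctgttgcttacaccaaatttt
shi, chrX:15891674-15891774: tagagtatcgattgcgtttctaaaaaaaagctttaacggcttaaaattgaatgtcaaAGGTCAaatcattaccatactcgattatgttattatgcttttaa
In the cpx window an AAGTCA stood near the edge, away from the summit base, and GAGAG occurred several times, also at the middle. In the shi window an AGGTCA stood close to the middle. The windows of Syx1A and Syn held none of the 3 motifs.

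Syx1A encodes syntaxin, the SNARE protein of the nerve terminal membrane, and it had the most promoter summits of the 32 genes. Its stronger promoter summit (3R, 24106374 to 24106550, signal 317, rank 3047 of 7229) lay 707 bp upstream of the TSS. Signals there were 177 in replicate 1 and 149 in replicate 3. A weaker one (24105498 to 24105907, signal 192) lay 60 bp downstream of the TSS in the 5' UTR, with signals of 135 in replicate 1 and 47.5 in replicate 3. The replicates placed this second summit far apart, at rank 3453 in replicate 1 and rank 10981 in replicate 3. Another (24100839 to 24100965, signal 201) lay just downstream of the gene, with signals of 99.7 and 116 in replicates 1 and 3. The whole of Syx1A lies inside eIF4EHP, which encodes a cap-binding translation factor, and the start of CG10694 is also within 1 kb of the strongest summit, so these summits cannot be given to Syx1A alone.

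The remaining SNARE genes had little. At nSyb, which encodes the SNARE protein of the vesicle, the single summit (3L, 1629406 to 1629815, signal 161) lay 8001 bp from the nSyb TSS, downstream of the gene. It was 310 bp upstream of the start of the neighbouring gene GC. Its signal was 67.7 in replicate 1 and 97.9 in replicate 3. Snap25, which completes the SNARE set, spans 225 kb near the centromere of 3L and had no summit in any of the 4 lists. The nearest reproducible summit was 1164 kb away. The gene comt, which encodes the ATPase that takes used SNARE complexes apart, had 1 weak summit in replicate 3 alone (signal 25.2, rank 19458).

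Of the genes that time fusion, cpx had a clear promoter summit and the synaptotagmin genes had none. The gene cpx encodes complexin, which clamps SNARE complexes until calcium enters. Its summit (3R, 4281231 to 4281530, signal 379, rank 2469) lay in an intron 311 bp upstream of 1 of the 8 TSSs of the gene. Signals there were 247 in replicate 1 (rank 1570) and 144 in replicate 3 (rank 3863). Syt1, which encodes the main calcium sensor of fast release, had no reproducible summit. Its highest pooled summit, 204 bp from a TSS, had a signal of 127 and missed the lowest reproducible signal of 135. Its rank was 11630 among replicate 1 peaks and 6291 among those of replicate 3. Syt4 had 1 summit in replicate 3 alone (signal 15.7, rank 29816), and Syt7 had no summit in any of the 4 lists.

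At the active zone genes summits were intronic and weak, or absent. Rim encodes a scaffold that ties vesicles to calcium channels, and its 43.8 kb held 2 intronic summits, at 35834 and 18831 bp from the TSS, with signals of 164 and 153. The first (3R, 17880539 to 17880948) had a signal of 126 in replicate 1, and no replicate 3 peak overlapped it. The second had signals of 103 in replicate 1 and 55.4 in replicate 3. The gene brp, which encodes Bruchpilot, the main protein of the active zone's dense projections, had 8 summits in the pooled list with a highest signal of 95.6, and none of them was reproducible. A reproducible summit of signal 296 lay 1021 bp outside brp, just beyond the flank used here. The calcium channel gene cac and the vesicle priming genes unc-13 and Cadps had no summit in any of the 4 lists.

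Syn and shi act on the vesicle pool. Syn encodes synapsin, which holds vesicles in reserve, and it had 3 reproducible summits. Its promoter summit (3R, 10190095 to 10190294, signal 344, rank 2756) lay 507 bp upstream of the TSS, with signals of 135 in replicate 1 and 197 in replicate 3, and the start of CG12814 was also within 1 kb. The strongest summit in Syn (10213502 to 10213820, signal 587, rank 1400) lay in an intron 22970 bp from the TSS of Syn and 652 bp upstream of the start of Timp, a gene for a metalloprotease inhibitor that lies inside Syn. Its signal in replicate 3 was 344 (rank 1350). No replicate 1 peak overlapped it, and the nearest replicate 1 summit was 6956 bp away. The highest value of the release class therefore has a peak in the list of replicate 3 only. Whether replicate 1 added to the 587 is unknown. Without this summit the highest signal in that class is the 379 at cpx. The last intronic summit was weak, with a signal of 147, and 56.1 and 88.0 in replicates 1 and 3. The gene shi encodes dynamin, which pinches new vesicles off the membrane. Its summit (X, 15891577 to 15891861, signal 282, rank 3448) lay 392 bp upstream of a TSS, with signals of 195 in replicate 1 and 112 in replicate 3.

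**Figure D2:**
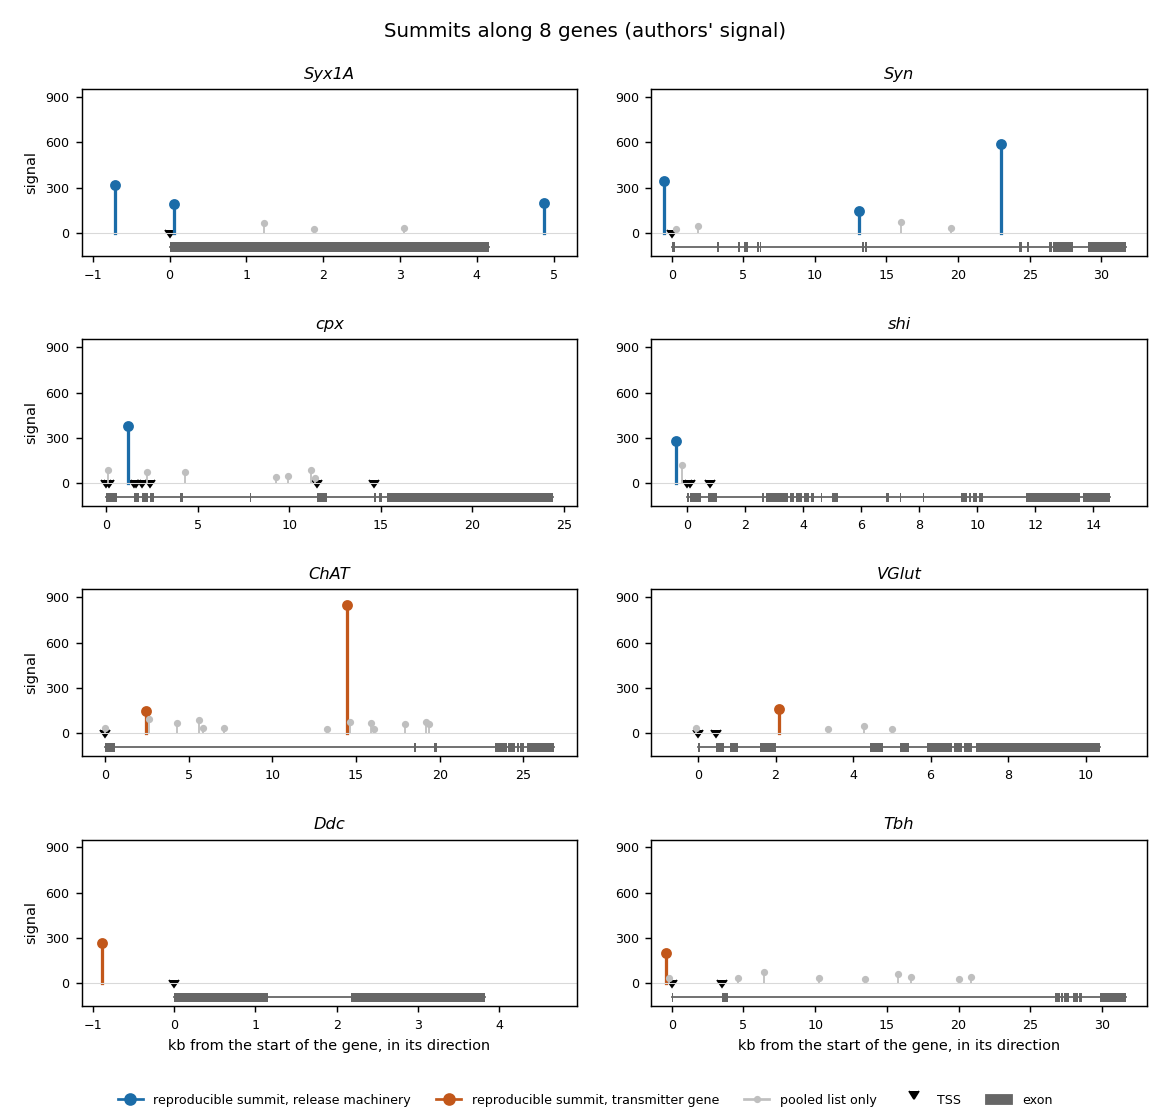
Summits along 8 genes, with distance in kb from the start of the gene in its own direction on the horizontal axis and the authors' signal on the vertical axis. Coloured stems are reproducible summits, grey stems are in the pooled list only, grey boxes are exons and black triangles are TSSs. In Syx1A, Syn, shi, Ddc and Tbh a coloured stem stands upstream of the first TSS, while the highest stems, in ChAT (845) and Syn (587), stand deep in the gene.

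Among the transmitter genes, 2 of 14 (14.3%) had a promoter summit, and 5 of 14 (35.7%) had a summit in the gene or within 1000 bp of it, against 23.3% and 30.4% of all protein-coding genes. The 2 were Ddc and Tbh, both genes of amine synthesis. Their windows are given in the same way, together with the window of the intronic ChAT summit, which was added after its value was seen because it was the strongest of all 32 genes.
Ddc, chr2L:19121148-19121248: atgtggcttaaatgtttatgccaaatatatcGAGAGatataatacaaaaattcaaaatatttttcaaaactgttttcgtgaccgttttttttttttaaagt
Tbh, chrX:7995218-7995318: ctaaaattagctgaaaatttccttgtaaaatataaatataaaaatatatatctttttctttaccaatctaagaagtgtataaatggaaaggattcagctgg
ChAT, chr3R:18719900-18720000: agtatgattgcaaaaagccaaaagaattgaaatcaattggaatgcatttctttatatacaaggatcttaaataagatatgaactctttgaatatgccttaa
The Ddc window held GAGAG once, and the windows of Tbh and ChAT held none of the 3 motifs.

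ChAT and VAChT, the enzyme that makes acetylcholine and the transporter that loads it, form a single locus with a shared TSS in the fly, and VAChT lies inside ChAT. The strongest summit (3R, 18719718 to 18720206, signal 845, rank 794) lay in a ChAT intron, 14449 bp from the shared TSS and 327 bp downstream of the start of the noncoding gene lncRNA:CR46265. Both replicates ranked it high, with a signal of 410 in replicate 1 (rank 676) and 448 in replicate 3 (rank 904). Another summit (18707751 to 18708160, signal 148) lay 2455 bp downstream of the TSS in an intron of both genes, with signals of 77.4 and 65.1 in replicates 1 and 3. No reproducible summit lay within 1000 bp of the shared TSS. The pooled list held 15 summits over ChAT.

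VGlut, the vesicular glutamate transporter gene that marks fly motor neurons, had 1 intronic summit (2L, 2402308 to 2402477, signal 164), 1621 bp from a TSS. Its signal was 88.0 in replicate 1 and 77.0 in replicate 3. Of the GABA genes, Gad1 encodes the enzyme that makes GABA and VGAT encodes its vesicular transporter. Gad1 had 9 pooled summits with a highest signal of 126, and none was reproducible. VGAT had no summit in any of the 4 lists.

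The amine genes were split. Ddc encodes dopa decarboxylase, which serves both dopamine and serotonin synthesis and also the hardening of cuticle in the epidermis. Its summit (2L, 19120993 to 19121402, signal 270, rank 3613) lay 892 bp upstream of the TSS, with signals of 151 in replicate 1 and 131 in replicate 3. Tbh encodes the last enzyme of octopamine synthesis. Its summit (X, 7995118 to 7995397, signal 201, rank 4882) lay 429 bp upstream of a TSS, with signals of 128 in replicate 1 and 84.1 in replicate 3. DAT is the dopamine transporter gene. Its only summit, 637 bp from the TSS, had a signal of 126 in the pooled list (rank 7714) and was among the highest 7229 of each replicate, at rank 6436 in replicate 1 and rank 4441 in replicate 3. Vmat, which loads amines into vesicles, and Tdc2, which makes tyramine, had pooled summits of at most 103 and 102, none of them reproducible. The tyrosine hydroxylase gene ple, the serotonin transporter gene SerT, the histamine enzyme gene Hdc and the vesicular transporter gene prt had no summit in any of the 4 lists.

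The 3 other neuronal genes had no reproducible summit. They were para, the sodium channel gene that carries action potentials, futsch, which encodes a microtubule protein of axons and terminals, and Appl, the fly gene related to the amyloid precursor protein. Each had several weak summits in the pooled list, with highest signals of 66.0, 91.6 and 118. Appl lies beside elav, and the nearest reproducible summit, 5.93 kb outside Appl with a signal of 280, had elav as its nearest start.

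Members just above and just below the edge of the reproducible list were close to each other. The lowest reproducible signals among the members were 147 in Syn and 148 in ChAT and VAChT. The highest signals of genes left without a reproducible summit were 127 at Syt1, 126 at DAT and 126 at Gad1.

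The 16 member summits were spread widely by rank, and the replicates disagreed mostly at the weaker ones. Below a signal of 201, most summits fell outside the highest 7229 of a replicate or had no peak there. At 201 and above, only the Syn summit of 587 did. Of the 16, 14 overlapped a peak in both replicates. The second strongest, in Syn (587), had no peak in replicate 1, and the cpx summit (379) was at rank 1570 in replicate 1 and 3863 in replicate 3. The weaker Syx1A summit of signal 201 was at ranks 5014 and 4809 in replicates 1 and 3. The 11 release summits had a median rank of 4890 of 7229, and the 5 transmitter summits a median rank of 4882. In replicate 1 the median rank was 3622.5 for the release summits and 3712 for the transmitter summits. In replicate 3 it was 4900 for the release summits and 6581 for the transmitter summits.

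**Figure D3:**
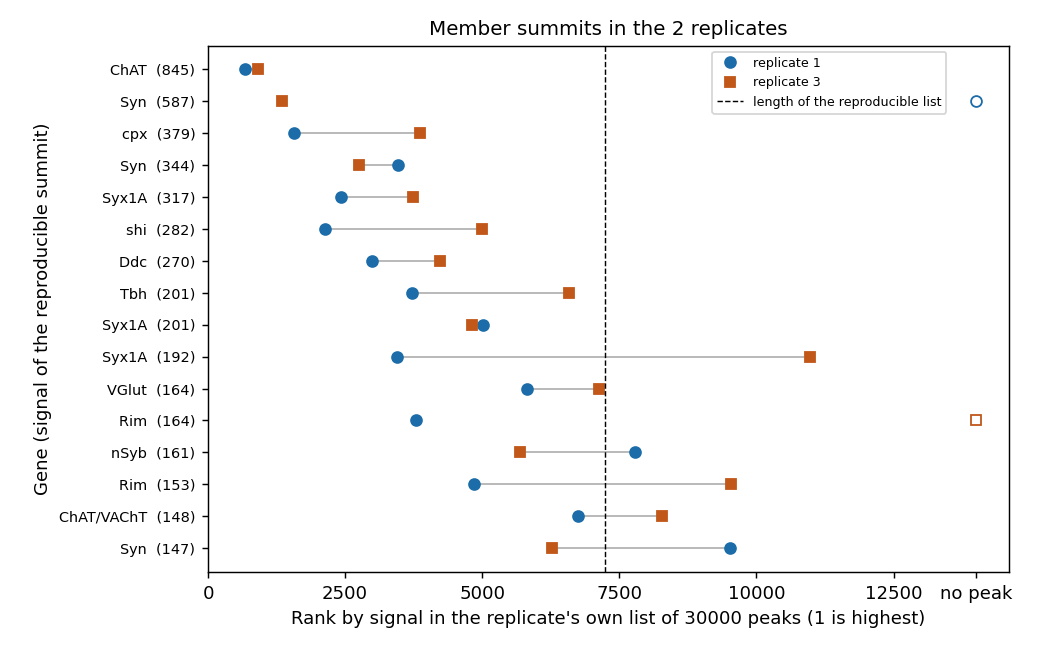
Rank by signal of each of the 16 member summits in the list of replicate 1 (circles) and of replicate 3 (squares), where 1 is the highest of 30000 peaks. Rows run from the highest to the lowest reproducible signal, given in brackets, open symbols mark a replicate with no overlapping peak, and the dashed line is at 7229. The ChAT pair at the top lies close together, at 676 and 904, the Syn summit in the second row has no replicate 1 peak, and the lowest rank shown is 10981 in replicate 3, for the Syx1A summit in the 5' UTR.

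By share, promoter summits were at 4 of 15 release genes (26.7%) and 2 of 14 transmitter genes (14.3%), against 23.3% of all protein-coding genes. Gene body summits were at 6 of 15 (40%) and 5 of 14 (35.7%), against 30.4% of all protein-coding genes. The counts are small, the difference between the classes was not tested, and the members were chosen with earlier results of these data known. Among the highest 7229 peaks of replicate 1, promoter summits were at 4 of 15 release genes and 3 of 14 transmitter genes, where 24% of all protein-coding genes had one. In replicate 3 they were at 5 of 15 release genes and 3 of 14 transmitter genes, where 24.9% of all protein-coding genes had one. Gene body summits were at 6 of 15 release genes and 7 of 14 transmitter genes in replicate 1 (30.8% of all protein-coding genes), so the order of the classes turned there. They were at 6 of 15 and 5 of 14 in replicate 3 (32.5% of all protein-coding genes).

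By signal, the median of the strongest summit of each gene was 299 over the 6 release genes with a summit and 201 over the 5 transmitter genes with a summit, against 423 over all 4239 protein-coding genes with one. Over every summit and not the strongest of each gene, the medians were 201 for the 11 release summits and 201 for the 5 transmitter summits, so the classes did not stand apart by that measure. For promoter summits the medians were 330 over 4 release genes and 236 over 2 transmitter genes, against 388 over 3247 protein-coding genes. Divided by the median of its list, the release value was 1.11 and the transmitter value 0.746. The same ratios were 1.19 and 0.673 in replicate 1 but 0.833 and 0.813 in replicate 3, so the release class was higher in both replicates and barely so in replicate 3. In the stronger 3614 reproducible peaks the order turned, with 0.718 over 4 release genes and 1.15 over 2 transmitter genes.

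For their length the members held few summits. Their median length was 17.9 kb, against 2.17 kb over all protein-coding genes, and long genes hold a summit more often. Of the 16 members of 20 kb or more, 5 had a summit, while 75.3% of all protein-coding genes of that length had one. By class these were 3 of 10 release genes, 2 of 3 transmitter genes and 0 of 3 other neuronal genes. Of the 10 members of 5 to 20 kb, 4 had one (47.3% of all such genes), and of the 6 members under 5 kb, 2 had one (22.1% of all such genes). Promoters showed the same where a gene has several starts. Of the 16 members with 2 or 3 TSSs, 2 had a promoter summit (37.9% of all such genes), and of the 14 members with 1 TSS, 3 had one (16.8% of all such genes). With 4 or more TSSs, 1 of 2 members had one (67% of all such genes). Over the length of the genes with their flanks, members held 1.65 summits per 100 kb, against 6.12 per 100 kb over all protein-coding genes. In the highest 7229 peaks of each replicate the members' density was 1.75 per 100 kb in replicate 1 and 1.44 in replicate 3, against 6.19 and 6.13 over all protein-coding genes.

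The release genes Syt7, unc-13 and Cadps are on chromosome 4, where summits were rare in general. Of its 80 protein-coding genes, 5% had a promoter summit and 5% had a gene body summit. The long release gene Snap25 is near a centromere, and no share was computed for genes there. The release class held 1.77 summits per 100 kb and the transmitter class 2.90. Without these 4 genes, a choice made after the data were seen, the release class held 3.99 per 100 kb, above the transmitter class. That order of the classes held in the highest peaks of replicate 3, with 3.265 for release and 2.897 for transmitter genes. It turned in the highest peaks of replicate 1, with 3.628 and 4.056, and in the whole pooled list, with 17.05 and 27.81. All members together, without these 4 genes, held 2.56 reproducible summits per 100 kb. Of the 12 remaining members of 20 kb or more, 5 had a summit, and they held 1.82 summits per 100 kb, against 5.62 per 100 kb over all protein-coding genes of that length.

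**Figure D4:**
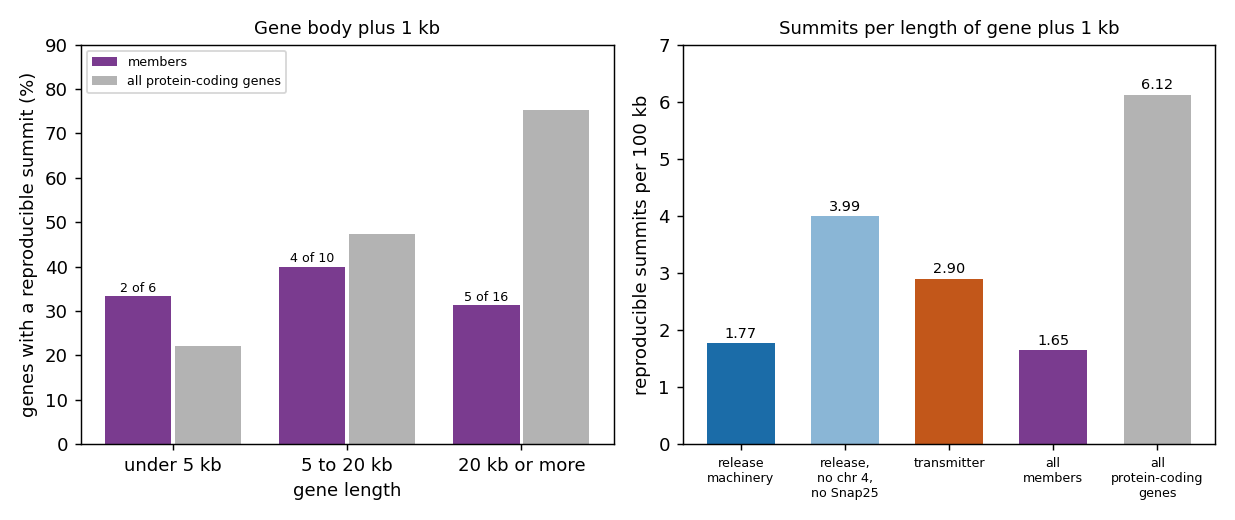
Left, the percentage of genes with a reproducible summit inside the gene or its 1 kb flanks, for members (purple, with counts) and all protein-coding genes (grey), in 3 classes of gene length. Right, reproducible summits per 100 kb of gene plus 1 kb on each side, for the member classes and for all protein-coding genes. The widest gap is at genes of 20 kb or more, with 5 of 16 members against 75.3%, and every member bar on the right is below the 6.12 of all protein-coding genes.

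The pooled list contains the reproducible summits, so its counts cannot be lower, and they are read here against all protein-coding genes. In the whole pooled list, which goes down to a signal of 27.0, 19 of the 32 genes (59.4%) had a promoter summit, against 38.3% of all protein-coding genes, and 20 of the 32 (62.5%) had one in the gene or within 1000 bp, against 44.9%. Over release genes the counts were 8 of 15 for promoters and 8 of 15 for gene bodies, over transmitter genes they were 8 of 14 and 9 of 14, and all 3 other neuronal genes had both. Among members of 20 kb or more the order was the other way, with a pooled gene body summit at 11 of 16 (68.8%), against 90.2% of all protein-coding genes of that length. A pooled promoter summit was at 68.8% of these members, against 79.4% of all protein-coding genes of that length. That order rested on the chromosome 4 genes and Snap25. Without them, a choice made after the data were seen, pooled gene body summits were at 11 of 12 members (91.7%), against the same 90.2%. Pooled promoter summits were also at 11 of 12 (91.7%), against the same 79.4%. Of the 112 pooled summits in or near members, 16 (14.3%) were in the reproducible list, against 26.5% of those in or near all protein-coding genes. The share was 23.4% over release genes and 10.4% over transmitter genes. Of the 21 members without a reproducible summit, 9 had a pooled one, and 10 had no summit in any of the 4 lists.

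Other genes of the same pathways, taken from a list of 33 release genes and 18 transmitter genes, had promoter summits more often in the release class, a difference that was not tested. All 33 release symbols and 15 of the transmitter symbols matched the annotation. Promoter summits were at 14 of the 33 release genes (42.4%) and at 4 of the 15 transmitter genes (26.7%), against 23.3% of all protein-coding genes. The release genes stnA and stnB were counted separately, though they share the same promoter summit. Gene body summits were at 15 of the 33 (45.5%) and 5 of the 15 (33.3%), against 30.4%. The shares of this wider list were not compared by number of TSSs or gene length, on which the shares of all protein-coding genes depend. The 5 release genes of highest promoter signal were Syx4, a syntaxin gene of the plasma membrane (1121), Snap29, a SNARE gene of membrane traffic (769), Amph, which encodes amphiphysin (595), EndoA, which encodes endophilin and serves vesicle recycling (321), and Sytbeta, a synaptotagmin gene (317). Starts of other genes also lay within 1 kb of the summits at Amph (Sin3A and lncRNA:CR45279), Snap29 (CG5554) and EndoA (CG14292). In the transmitter class the 4 genes were Gs2, a glutamine synthetase gene of glia (1070), Pu, for the first enzyme of the pterin cofactor of amine synthesis (232), Trhn, the neuronal tryptophan hydroxylase gene of serotonin synthesis (231), and Ace, which encodes acetylcholinesterase (145). The start of CG4286 also lay within 1 kb of the Pu summit, and that of CG11686 within 1 kb of the Ace summit. The promoter signals of Syx4, Gs2, Snap29 and Amph were above the highest promoter signal among the 32 members, the 379 at cpx.

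Promoter summits at members stood mostly upstream of the start, and most other summits were intronic. Of the 7 promoter summits, 6 were upstream of the nearest TSS of the gene, by 311 to 892 bp, and the Syx1A summit in the 5' UTR was 60 bp downstream. Of the 16 summits, 8 lay in introns of a member, and 5 had the start of a gene outside the list within 1 kb. In windows of the summit with 50 bases on each side, read on both strands, AAGTCA was in 1 of 16 member windows and in 5.92% of all 7229 windows, and AGGTCA in 1 of 16 and in 2.14%. GAGAG was in 3 of 16 member windows and in 8.30% of all windows, TATCGATA in 0 of 16 and 0.678%, and CANNTG, where N is any base and a match may overlap one of the others, in 6 of 16 and 31.3%. The median GC content of the windows was 32.7% over member summits and 29.7% over all summits. A match of letters is a description and does not show which protein was bound.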

How the data were processed

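ChIP-seq of tagged Hr51 was done on 2 samples of whole embryos, biological replicates 1 and 3. Sonication gave a size range of 200 to 800 bp, per the labels. Per the deposited file descriptions, peaks were called on dm6 alignments against a control alignment, for each replicate and for both pooled, and the reproducible list was derived from these 3 lists by an irreproducible discovery rate procedure. Neither the aligner nor the caller with its settings is named in the sources used here. The deposited signal is the authors' value per peak. The labels call the samples biological replicates of different biosamples.

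Genes and TSSs came from Ensembl release 115, of the same assembly as the RefSeq genome used for sequence. Symbols were matched with case. A summit was column 2 plus column 10, written 1-based. Every summit was given to each gene whose TSS lay within 1000 bp, and separately to each gene whose span plus 1000 bp held it. A replicate's value at a summit is its overlapping peak (at least 1 bp) of nearest summit. Densities use merged spans. The named genes were all 32 members, and in the wider list the 5 of highest promoter signal in each class, or all 4 transmitter genes with such a summit. The members, classes and lists were chosen with earlier results of these data known, so no test was run, and shares stand beside those of all protein-coding genes. The assignment was tested on simulated summits. Python 3.11.15 and pandas 2.3.3 were used.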

Additional observations from a re-analysis of the deposited data

How the results depend on the processing

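Counting 1 summit for each distinct interval moved no result. In the whole pooled list promoter summits were at 8 release genes, 8 transmitter genes and 19 members, and gene body summits at 9 transmitter genes and 20 members. The densities there were 7.56 per 100 kb over release genes, 27.8 over transmitter genes and 11.5 over members, and the median signals over the list median were 3.66 for release genes and 2.42 for transmitter genes. In the stronger 3614 reproducible peaks promoter summits were at 1 transmitter gene, gene body summits at 2 transmitter genes and 6 members, the densities were 0.804 over release genes, 1.16 over transmitter genes and 0.720 over members, and the median ratios were 0.718 for release genes and 1.15 for transmitter genes. Within 500 bp of a TSS, 1 transmitter gene had a summit, and with no flank 3 transmitter genes and 7 members did. When any overlap with the peak interval counted, the release density was 1.93, and the transmitter median ratio was 1 because the 845 peak in ChAT then reached VAChT. Leaving out each replicate in turn gave release densities of 1.45 to 1.61, transmitter densities of 2.90 to 4.06, release median ratios of 0.833 to 1.19 and transmitter median ratios of 0.673 to 0.813. Without the genes on chromosome 4 and Snap25 the release density was 3.99 and the members' density 2.56. The other 57 of the recomputed values stayed within the limits set for them (a factor of 1.5 for a count, otherwise the spread between the 2 replicates). Those limits do not fix the order of the classes. When a summit counted only for the gene of its nearest TSS, gene body summits were at 4 of 15 release genes and 4 of 14 transmitter genes. With a 5000 bp flank they were at 7 of 15 and 7 of 14, so in both settings the transmitter share was slightly higher. Limits are the small counts, the unknown depth, and the absence of a test between the classes. No paired analysis was possible because there was 1 group.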
